A study of Homo sapiens with 12 samples.

Results

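The 56 genes described here are chromatin regulators, among them bromodomain proteins other than BRD8, taken by gene symbol from the 27814 named genes of a read count table of BT474 cells. All 56 were found in the table, and all 56 passed the filter on low counts, which kept 16208 genes. BT474 is an established HER2-amplified, hormone receptor-positive breast cancer line. Messenger RNA was sequenced in 12 libraries, 3 in each of 4 groups: cells labelled BRD8 knockout (KO) given 200 nM neratinib for 4 h, parental cells given the same treatment, KO-labelled cells in DMSO, and parental cells in DMSO. Neratinib binds covalently to HER2 and related receptor kinases and blocks them, and DMSO is its solvent. The labels name no further allele or agent, and do not say whether the KO-labelled cells were 1 clone or a pool or where BRD8 was cut, so a difference between the genotypes and a difference between cell lines grown apart cannot be told apart. Nor do they state whether the 3 libraries of a group came from separate cultures; a p-value here measures the spread between libraries, which may be technical. The rule for the 56 genes uses their symbols alone.

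Chromatin regulators act on the packaging of DNA. Histone acetyltransferases (EP300, CREBBP and the KAT genes) and methyltransferases (the KMT, SETD and NSD genes, and Polycomb repressive complex 2, PRC2) add marks, deacetylases (HDAC genes, SIRT1) and demethylases (KDM genes) remove them, and bromodomain proteins bind acetylated lysines. SWI/SNF, CHD, INO80 and SRCAP complexes move, eject or exchange nucleosomes with the energy of ATP, while DNMT enzymes methylate DNA and TET enzymes oxidise the methyl group. BRD8 belongs to the EP400-TIP60 complex, which combines nucleosome remodelling with histone acetylation.

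Library totals over named genes lay between 32471198 and 44726160 counts. BRD8, which is no member, averaged 156 ± 2.44 CPM in KO-labelled and 236 ± 5.23 CPM in parental cells in neratinib, and 67.4 ± 1.39 CPM in KO-labelled and 64.1 ± 0.706 CPM in parental cells in DMSO (CPM, counts scaled to library size with TMM factors; SD, n = 3 each). In DMSO the KO-labelled cells thus had no less BRD8 mRNA than the parental cells, and they are named by their label throughout. Luminal and HER2-amplicon genes were high in every library: the 12 markers summed to 17404 to 17675 CPM in KO-labelled neratinib, 17356 to 17601 CPM in parental neratinib, 19576 to 19916 CPM in KO-labelled DMSO and 18554 to 18758 CPM in parental DMSO libraries, with ERBB2 and keratins as the largest part. Within that list GATA3 averaged 171 CPM in KO-labelled and 389 CPM in parental cells in neratinib, and 249.7 CPM in KO-labelled and 435 CPM in parental cells in DMSO. PGR averaged 75.6 CPM in KO-labelled and 193 CPM in parental cells in neratinib, and 34.7 CPM in KO-labelled and 79.8 CPM in parental cells in DMSO, and FOXA1 averaged 362 CPM in KO-labelled and 609.9 CPM in parental cells in neratinib, and 578 CPM in KO-labelled and 773 CPM in parental cells in DMSO. The list was split. GRB7 averaged 2943 CPM in KO-labelled and 2193 CPM in parental cells in neratinib, and 627 and 424 CPM in DMSO. KRT8 averaged 1974 and 1440 CPM in neratinib, and 3896 and 3514 CPM in DMSO, KO-labelled first. Called higher in KO-labelled cells were 6 of the 12 in DMSO (beside 36% of all genes) and 4 in neratinib (beside 34.7%). Called lower were 6 in DMSO (beside 35.6%) and 7 in neratinib (beside 36.9%). Of markers of other cells, CD3E, PTPRC, PDGFRB and FAP were at or near 0, at most 0.224 CPM in any library, while CD68 averaged 6.57 CPM in KO-labelled and 6.28 CPM in parental cells in neratinib, and 5.13 CPM in KO-labelled and 3.68 CPM in parental cells in DMSO. The 3 endothelial markers summed to 36.8 to 41.0 CPM in KO-labelled neratinib, 14.3 to 15.3 CPM in parental neratinib, 33.8 to 34.8 CPM in KO-labelled DMSO and 12.1 to 12.2 CPM in parental DMSO libraries, nearly all of it VWF. Fibroblast and mesenchymal markers, mostly COL1A1 and VIM, summed to 184 to 188 CPM in KO-labelled neratinib, 134 to 137 CPM in parental neratinib, 117 to 125 CPM in KO-labelled DMSO and 92.1 to 97.5 CPM in parental DMSO libraries. The 3 basal markers, mostly TP63, summed to 10.8 to 11.98 CPM in KO-labelled neratinib, 4.97 to 5.27 CPM in parental neratinib, 10.3 to 10.4 CPM in KO-labelled DMSO and 6.98 to 7.30 CPM in parental DMSO libraries. The part of these markers in the genotype differences below was not tested.

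In parental cells in DMSO the 56 mRNAs spanned a wide range of levels. Per kilobase of transcript, BRD2 stood highest at 81.1 ± 2.42 CPM, followed by SMARCA4 at 70.5 ± 0.604, KDM2A at 61.3 ± 0.491, CHD4 at 55.4 ± 0.994 and SMARCD2 at 48.2 ± 1.26 CPM (SD, n = 3). HDAC1 at 43.1 ± 0.284 and DNMT1 at 42.8 ± 0.835 CPM per kilobase came next and did not differ beyond their spread. At the low end were EZH1 at 4.25 ± 0.0421, KMT2A at 3.81 ± 0.0576 and KAT2B at 0.731 ± 0.129 CPM per kilobase. BRD2, a BET-family reader of acetylated histones, and KAT2B, an acetyltransferase of the SAGA and ATAC type of complex, kept the first and the last place in all 4 groups. In KO-labelled cells in neratinib the order after BRD2, at 109 ± 1.44 CPM per kilobase, was KDM2A at 50.1 ± 0.409, SMARCA4 at 36.7 ± 0.568 and HDAC3 at 35.9 ± 1.14, and SMARCA4 and HDAC3 did not differ beyond their spread; CHD4 stood at 19.7 ± 0.263 CPM per kilobase in these cells. Because these are bulk samples, less RNA per cell and fewer cells with the RNA cannot be told apart in any value given here.

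**Figure D1:**
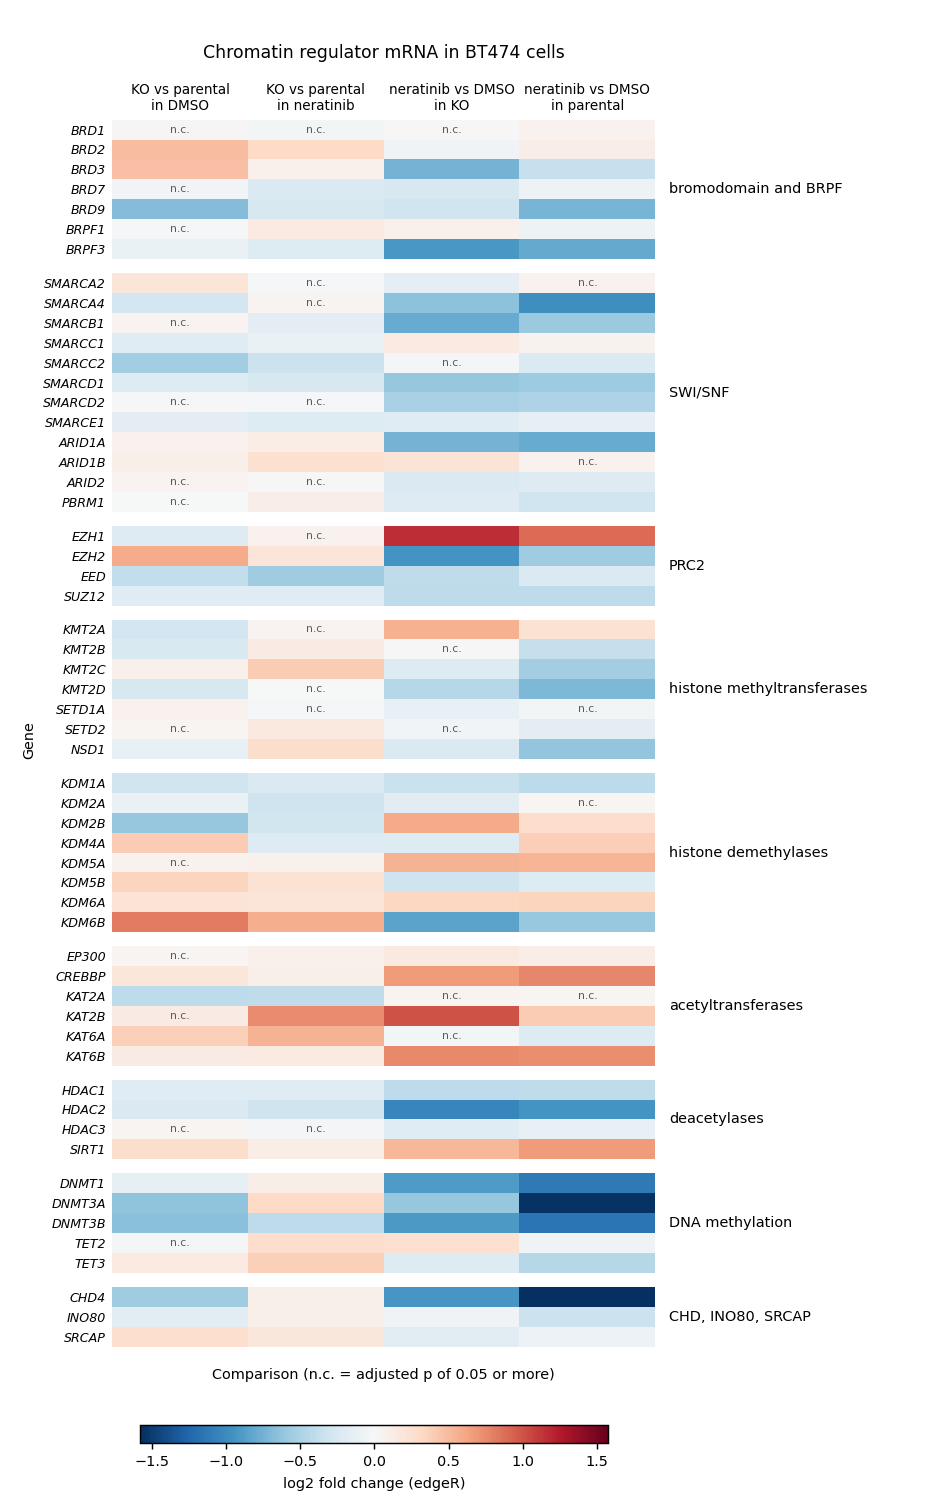
Colour shows the log2 fold change of each of the 56 genes (rows, grouped by role) in the 4 pairwise comparisons (columns), with n.c. where the adjusted p was 0.05 or more. The neratinib columns hold the deepest blues, CHD4 at -1.58 and DNMT3A at -1.56 in parental cells, and the deepest red, EZH1 at 1.17 in KO-labelled cells.

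In DMSO, KO-labelled cells held more mRNA of the demethylase KDM6B, the PRC2 enzyme EZH2 and the BET genes BRD2 and BRD3 than parental cells, and less of BRD9, DNMT3A, DNMT3B, KDM2B, CHD4 and SMARCC2. With edgeR's quasi-likelihood test and an adjusted p (Benjamini-Hochberg over all genes tested) below 0.05, 43 of 56 genes differed, or 76.8%, beside 71.6% of all genes tested. Of these, 18 were higher (36% of all genes were) and 25 were lower (35.6% of all genes). Past a 1.5-fold difference stood 6 of the 56, or 10.7%, beside 23.1% of all genes: 2 higher, beside 14.3% of all genes, and 4 lower, beside 8.81%. The median log2 fold change was -0.01 over the 56 and 0.00 over all genes, and the median size of a change, sign aside, was 0.19 over the 56 and 0.29 over all genes.

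Among the writers and erasers of the repressive PRC2 mark, KDM6B, which removes it, had 119, 118 and 122 CPM in KO-labelled and 67.6, 67.2 and 67.6 CPM in parental cells in DMSO, a log2 fold change of 0.82 (SE 0.028). The KO-labelled libraries all lay far above the parental ones. EZH2, which writes the mark, had 80.7, 82.5 and 83.7 CPM in KO-labelled and 56.6, 54.5 and 53.1 CPM in parental cells (0.59, SE 0.030), again without overlap. The other 3 PRC2 genes were lower in KO-labelled cells: the core subunits EED (-0.39) and SUZ12 (-0.20) and the second catalytic subunit EZH1 (-0.21). KDM2B, a demethylase that brings a Polycomb complex to unmethylated CpG islands, had 25.4, 24.3 and 25.7 CPM in KO-labelled and 39.1, 37.2 and 38.3 CPM in parental cells, a log2 fold change of -0.61 (SE 0.037). KDM4A, a demethylase of other histone marks, had 135, 136 and 138 CPM in KO-labelled and 104, 105 and 100.5 CPM in parental cells (0.40, SE 0.025); the adjusted p of each gene given with an SE here and for the other roles in DMSO was at most 7.15e-15.

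Among readers and remodellers, BRD2 had 543, 549 and 574 CPM in KO-labelled and 408, 397 and 385 CPM in parental cells in DMSO, a log2 fold change of 0.48 (SE 0.022). BRD3, its BET relative, had 133, 137 and 137 CPM in KO-labelled and 101, 96.2 and 97 CPM in parental cells (0.47, SE 0.026). Every KO-labelled library lay above every parental one for both BET genes. BRD9, a subunit of the non-canonical SWI/SNF complex, went the other way, with 47.0, 50.2 and 49.6 CPM in KO-labelled and 80.2, 77.9 and 77.1 CPM in parental cells (-0.68, SE 0.030). SMARCC2, a core SWI/SNF scaffold, had 107, 108 and 114 CPM in KO-labelled and 165, 161 and 156 CPM in parental cells (-0.55, SE 0.025). CHD4, the ATPase of the NuRD complex, had 249, 244 and 249 CPM in KO-labelled and 372, 363 and 359 CPM in parental cells (-0.56, SE 0.020). All 3 were lower in every KO-labelled library. Of the 12 SWI/SNF genes, 3 were higher and 5 lower in KO-labelled cells, beside 36% and 35.6% of all genes. The ATPase SMARCA4 was at -0.29.

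Neither genome annotation nor strand setting of the authors' counting is known, so reads in exons shared with a neighbour may be counted to either gene or to none. In GENCODE 29, BRD9 (GRCh38 chr5:850291-892824) shares 182 exon bases with TRIP13 on the other strand, which was at 28.5 CPM in KO-labelled and 38.9 CPM in parental cells in DMSO, and 222 with ZDHHC11, at 20.2 CPM in KO-labelled and 20.8 CPM in parental cells in DMSO. SMARCC2 shares 514 exon bases with MYL6 on the other strand, an abundant mRNA at 1197 CPM in KO-labelled and 1233 CPM in parental cells in DMSO. BRD3 shares 1281 exon bases with BRD3OS on the other strand, which averaged 34.9 to 40.3 CPM over the 4 groups. KDM5A shares 182 with CCDC77 on the other strand, which averaged 27.4 CPM in KO-labelled and 29.3 CPM in parental cells in neratinib, and 10.4 CPM in KO-labelled and 9.30 CPM in parental cells in DMSO. KDM2B shares 439 with RNF34, at 41.0 to 50.5 CPM over the groups, and KDM4A shares 464 with KDM4A-AS1, at most at 0.643 CPM in any group mean. Of the 56 genes, 17 share exon bases with another gene of the table. SUZ12 and KMT2C also have partial copies elsewhere in the genome, and their counts are uncertain for that reason.

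Among the DNA methylation genes in DMSO, the enzymes that set new methylation were lower in KO-labelled cells. DNMT3A had 26.0, 26.5 and 27.4 CPM in KO-labelled and 41.4, 41.1 and 41.3 CPM in parental cells (-0.63, SE 0.041). DNMT3B had 17.8, 17.2 and 17.1 CPM in KO-labelled and 28.7, 26.6 and 26.6 CPM in parental cells (-0.65, SE 0.046). The maintenance enzyme DNMT1 differed less, by -0.14, and TET3, which oxidises methylcytosine, was higher by 0.15. Of the acetyltransferases, KAT6A had 81.7, 80.6 and 82.8 CPM in KO-labelled and 63.4, 63.0 and 62.7 CPM in parental cells (0.37, SE 0.030), while KAT2A, the relative of KAT2B, was at -0.41. The histone methyltransferases were lower in 4 of 7 cases, led by KMT2A at -0.29, and higher in 2. Of all genes, 35.6% were lower and 36% higher. Of the deacetylases HDAC1 and HDAC2 were lower (-0.19 and -0.23) and SIRT1 was higher (0.27).

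In neratinib more of these genes were called higher than lower in KO-labelled cells, and only 1 passed 1.5-fold. KO-labelled cells held more KAT2B, KDM6B, KAT6A, KMT2C, TET3 and DNMT3A mRNA, and less EED, DNMT3B, KAT2A, SMARCC2, KDM2A and HDAC2 mRNA. Called were 46 of 56 genes (82.1%, beside 71.6% of all genes), of which 28 were higher (50%, beside 34.7% of all genes) and 18 lower (32.1%, beside 36.9%). The gene past 1.5-fold was KAT2B, upwards, beside 22.9% of all genes (13.9% higher and 9.06% lower). A second gene passed it without parental neratinib replicate 2 or KO-labelled neratinib replicate 3 (KDM6B) and without KO-labelled neratinib replicate 1 (EED). The median log2 fold change was 0.07 over the 56 and -0.02 over all genes. The median size of a change, sign aside, was 0.19 over the 56 and 0.28 over all genes.

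KAT2B, the member with the lowest level per kilobase, had 8.46, 6.78 and 8.35 CPM in KO-labelled and 4.73, 4.59 and 4.65 CPM in parental cells in neratinib, a log2 fold change of 0.74 (SE 0.099). In DMSO it had 3.75, 3.43 and 4.63 CPM in KO-labelled and 4.15, 3.54 and 2.90 CPM in parental cells, and the libraries overlapped. Its relative KAT2A had 31.8, 30.0 and 30.0 CPM in KO-labelled and 40.9, 38.8 and 40.9 CPM in parental cells in neratinib (-0.40, SE 0.037), and was lower in KO-labelled cells in both conditions. KAT6A, the enzyme of the MOZ acetyltransferase complex, had 76.8, 77.6 and 83.2 CPM in KO-labelled and 54.7, 56.0 and 52.0 CPM in parental cells (0.55, SE 0.031). Of the 6 acetyltransferases, 5 were higher in KO-labelled cells in neratinib and KAT2A was lower, beside 34.7% and 36.9% of all genes. KDM6B again lay higher, with 65.2, 69.0 and 64.3 CPM in KO-labelled and 43.8, 46.2 and 43.8 CPM in parental cells (0.57, SE 0.031). The adjusted p of each gene given with an SE for this condition was at most 1.35e-06.

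Other roles in neratinib were split. KMT2C, which methylates histones at enhancers, had 127, 141 and 137 CPM in KO-labelled and 101, 103 and 104 CPM in parental cells (0.40, SE 0.029). Of the 7 histone methyltransferases 4 were higher and none was lower, with 3 not called. Of all genes, 34.7% were higher and 36.9% lower. TET3 had 81.2, 85.2 and 82.0 CPM in KO-labelled and 63.0, 64.4 and 63.8 CPM in parental cells (0.38, SE 0.027). DNMT3A had 16.7, 18.6 and 17.0 CPM in KO-labelled and 15.1, 13.4 and 13.3 CPM in parental cells (0.32, SE 0.054), the opposite of its order in DMSO. DNMT3B kept its direction, with 8.91, 9.43 and 9.47 CPM in KO-labelled and 12.3, 12 and 12.6 CPM in parental cells (-0.41, SE 0.061). EED, which binds the PRC2 mark, had 9.65, 9.05 and 8.27 CPM in KO-labelled and 13.0, 13.4 and 13.4 CPM in parental cells (-0.56, SE 0.062). All 3 KO-labelled libraries were below the parental ones for EED and DNMT3B and above them for DNMT3A and TET3. KDM2A (-0.33, SE 0.018), HDAC2 (-0.33, SE 0.030) and SMARCC2 (-0.34, SE 0.026) were also lower without overlap. The 3 nucleosome remodellers CHD4, INO80 and SRCAP were each higher, by 0.09, 0.09 and 0.18.

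The 2 genotype comparisons share no library. Across the 56 genes their log2 fold changes had a Pearson correlation of 0.575, given as a description, since genes of the same cells are not independent. Higher in KO-labelled cells in both conditions were 15 genes, beside 25.5% of all genes, and lower in both were 15, beside 25.3%. Lower in DMSO and higher in neratinib were 6 genes, CHD4, DNMT1, DNMT3A, INO80, KMT2B and NSD1, beside 3.01% of all genes. KDM4A alone was higher in DMSO and lower in neratinib, beside 3.44% of all genes. When each gene was given a coefficient of variation of 0.1, a larger spread than measured, DNMT3A was the only one of these 7 still called in both conditions. Called in neither condition were 4 genes, ARID2, BRD1, HDAC3 and SMARCD2, beside 14% of all genes. The other 15 were called in 1 condition. Higher in neratinib alone were 7 (BRPF1, EP300, KAT2B, KDM5A, PBRM1, SETD2 and TET2), beside 6.2% of all genes. Lower in neratinib alone were 2 (BRD7 and SMARCB1), beside 8.17%. Higher in DMSO alone were 2 (SETD1A and SMARCA2), beside 7.08%. The SETD1A call was lost with DESeq2 or its size factors and with no filter. It was also lost without parental DMSO replicate 2 or 3, KO-labelled DMSO replicate 1, 2 or 3, or parental neratinib replicate 1 or 3. Lower in DMSO alone were 4 (EZH1, KMT2A, KMT2D and SMARCA4), beside 7.32%. Libraries of KO-labelled and parental cells did not overlap for 44 of the 56 genes in DMSO, beside 72.8% of all genes, and for 45 in neratinib, beside 72.6%.

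**Figure D2:**
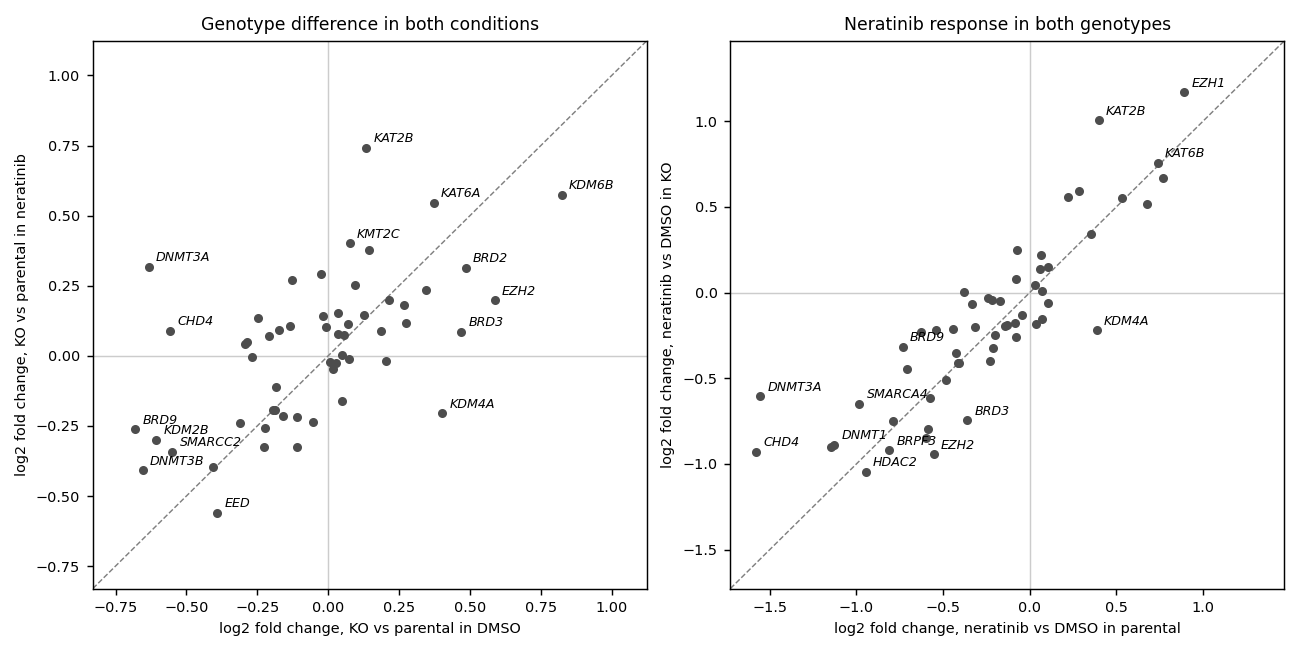
Each point is 1 of the 56 genes; the left panel sets the log2 fold change of KO-labelled against parental cells in DMSO (x) beside that in neratinib (y), and the right panel sets the neratinib response of parental cells (x) beside that of KO-labelled cells (y). DNMT3A and CHD4 lie left of 0 and above 0 in the left panel, at -0.63 and -0.56 in DMSO, and above the dashed line of equal change in the right panel.

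Promoter letters were read for the 52 of the 56 genes found in RefSeq's promoter table (GRCh38.p14), all but ARID2, KAT6A, SMARCC1 and SMARCC2, over the 250 bases before 1 annotated start of each gene. These promoters had a median GC content of 70%, beside 58% over all 35116 promoters of the table. The E-box CACGTG, a palindrome searched on both strands, was in the promoters of SIRT1, KDM6A, DNMT3A and KMT2D, 4 of 52 or 7.69%, beside 6.34% of all promoters. They are shown because the neratinib responses of these genes had opposite directions: SIRT1 and KDM6A rose and DNMT3A and KMT2D fell in both genotypes. The capitals mark the E-box, which in SIRT1 occurs at 2 places; none of the other motifs searched was in these 4 windows.
SIRT1: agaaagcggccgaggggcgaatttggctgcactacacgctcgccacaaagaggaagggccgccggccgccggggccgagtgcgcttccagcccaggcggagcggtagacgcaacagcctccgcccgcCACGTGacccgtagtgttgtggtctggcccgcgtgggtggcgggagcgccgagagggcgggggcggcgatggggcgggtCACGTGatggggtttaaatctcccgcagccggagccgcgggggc
KDM6A: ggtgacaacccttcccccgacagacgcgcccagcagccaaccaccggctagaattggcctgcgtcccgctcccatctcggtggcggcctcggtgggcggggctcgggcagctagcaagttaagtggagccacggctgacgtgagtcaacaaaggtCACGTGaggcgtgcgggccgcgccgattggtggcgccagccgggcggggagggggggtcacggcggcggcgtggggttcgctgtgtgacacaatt
DNMT3A: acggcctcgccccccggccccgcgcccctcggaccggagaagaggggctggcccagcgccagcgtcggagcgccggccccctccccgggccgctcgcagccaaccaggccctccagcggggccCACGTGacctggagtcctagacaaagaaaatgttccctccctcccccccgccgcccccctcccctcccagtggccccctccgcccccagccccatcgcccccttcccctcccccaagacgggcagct
KMT2D: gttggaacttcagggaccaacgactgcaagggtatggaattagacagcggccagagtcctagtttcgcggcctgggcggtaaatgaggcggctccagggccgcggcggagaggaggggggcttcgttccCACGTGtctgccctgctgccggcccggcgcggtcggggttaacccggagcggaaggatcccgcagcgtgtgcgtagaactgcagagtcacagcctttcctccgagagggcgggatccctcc
The stretches are chr10:67884406-67884655 (plus strand), chrX:44872938-44873187 (plus strand), chr2:25252264-25252513 (minus strand) and chr12:49060795-49061044 (minus strand), printed 5′ to 3′ in the direction of the gene. The start used for DNMT3A lies inside the gene's annotated span and is 1 of several. Inner starts were used for other members too, among them KDM2A, SMARCA2, SMARCA4 and DNMT1. The GC content and motif counts therefore describe 1 start per gene, which need not be the main one. The E-box begins 123 and 44 bases before the start in SIRT1, 95 in KDM6A, 127 in DNMT3A and 121 in KMT2D. A match of letters is a description and not a binding site. The E2F letters TTTCCCGC or TTTGGCGC were in the promoters of BRD7 and SUZ12, 3.85% of the 52 beside 1.93% of all, and the FOXO letters TGTTTAC, present in 2.98% of all promoters, were in none of the 52 windows. The same held for CRE (TGACGTCA, 1.65% of all), NRF1 (1.03%) and ETS (CCGGAAGT, 3.42%), each searched on both strands.

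Most of these mRNAs were lower in neratinib in both genotypes, among them those of the DNA methyltransferases, CHD4, SMARCA4, HDAC2, BRPF3 and EZH2, while EZH1, CREBBP, KAT6B, SIRT1 and KAT2B rose. In KO-labelled cells 50 of 56 genes were called (89.3%, beside 77.2% of all genes), 14 upwards (25%, beside 38.9%) and 36 downwards (64.3%, beside 38.4%). In parental cells 51 were called (91.1%, beside 80.7%), 14 upwards (25%, beside 41.8%) and 37 downwards (66.1%, beside 38.9%). At least 1.5-fold were 18 responses in KO-labelled cells, beside 33.1% of all genes, and 17 in parental cells, beside 39.8%. Of these, 5 rose in KO-labelled cells (beside 18.9% of all genes) and 4 in parental cells (beside 22.5%), and 13 fell in each genotype (beside 14.2% in KO-labelled and 17.3% in parental cells). The median log2 fold change was -0.20 over the 56 and 0.02 over all genes in KO-labelled cells. In parental cells it was -0.22 over the 56 and 0.04 over all genes. The median size of a response, sign aside, was 0.33 over the 56 and 0.40 over all genes in KO-labelled cells. In parental cells this size was 0.38 over the 56 and 0.47 over all genes. The 2 responses share no library, and their Pearson correlation over the 56 genes was 0.864, given as a description.

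The 2 catalytic subunits of PRC2 moved apart. EZH1 had 36.8, 38.3 and 39.8 CPM in neratinib and 15.9, 17.6 and 17.6 CPM in DMSO in KO-labelled cells, a log2 fold change of 1.17 (SE 0.043). In parental cells it had 36.5, 35.8 and 37.0 CPM in neratinib and 19.5, 19.6 and 19.9 CPM in DMSO (0.89, SE 0.042). EZH2 had 42.9, 42.4 and 42.9 CPM in neratinib in KO-labelled cells, against the DMSO values above, and fell by 0.94 on the log2 scale (SE 0.031). In parental cells it had 38.5, 37.6 and 35.6 CPM in neratinib and fell by 0.56 (SE 0.033). Every neratinib library was thus above every DMSO library of its genotype for EZH1 and below it for EZH2. EED and SUZ12 fell in both genotypes, by 0.40 and 0.41 in KO-labelled and by 0.23 and 0.41 in parental cells.

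All 3 DNA methyltransferases fell in both genotypes. DNMT3A dropped to 15.1, 13.4 and 13.3 CPM in parental cells in neratinib, against 41.4, 41.1 and 41.3 CPM in DMSO, a log2 fold change of -1.56 (SE 0.046). In KO-labelled cells its change was -0.61 (SE 0.048), with the values given above. DNMT1, which copies methylation after replication, had 117, 112 and 113 CPM in neratinib and 213, 207 and 213 CPM in DMSO in KO-labelled cells (-0.89, SE 0.024). In parental cells DNMT1 had 103, 111 and 104 CPM in neratinib and 235, 233 and 227 CPM in DMSO (-1.13, SE 0.024). No neratinib library of either genotype reached a DMSO library for these genes. DNMT3B fell by 0.90 in KO-labelled cells (SE 0.057) and by 1.15 in parental cells (SE 0.049). TET3 fell in both genotypes, and TET2 rose by 0.25 in KO-labelled cells and was at -0.07 in parental cells. The median over the 5 genes was -0.61 in KO-labelled and -1.13 in parental cells.

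Proliferation genes were split. Of 20 such genes, which include replication factors, 14 fell and 6 rose with neratinib in each genotype. Of all genes, 38.4% fell and 38.9% rose in KO-labelled cells, and 38.9% fell and 41.8% rose in parental cells. The 6 that rose were TOP2A, CDK1, CCNB1, CCNA2, AURKA and BUB1. The MCM genes, RRM2 and E2F1 were among the 14 that fell. The median log2 fold change of the 20 was -0.45 in KO-labelled and -0.78 in parental cells. The summed level of the 20 was 1720 to 1732 CPM in KO-labelled neratinib, 1575 to 1586 CPM in parental neratinib, 2168 to 2196 CPM in KO-labelled DMSO and 2251 to 2261 CPM in parental DMSO libraries. Between the genotypes, 8 of the 20 were higher and 9 lower in KO-labelled cells in DMSO (beside 36% and 35.6% of all genes). In neratinib 11 were higher and 2 lower (beside 34.7% and 36.9%). The part of proliferation in the changes of the chromatin genes was not tested.

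Among remodellers, CHD4 had 128, 130.4 and 131 CPM in neratinib and 249, 244 and 249 CPM in DMSO in KO-labelled cells (-0.93, SE 0.022). In parental cells it had 120.2, 126 and 120.2 CPM in neratinib and 372, 363 and 359 CPM in DMSO (-1.58, SE 0.021), the largest fall of the 56. SMARCA4, the main SWI/SNF ATPase here, had 216, 211 and 211 CPM in neratinib and 332, 332 and 337 CPM in DMSO in KO-labelled cells (-0.65), and 203, 214 and 203 CPM in neratinib and 411, 410.0 and 404 CPM in DMSO in parental cells (-0.98, SE 0.020). The neratinib levels of CHD4 and SMARCA4 were close in the 2 genotypes, while the DMSO levels were higher in parental cells. Of the 12 SWI/SNF genes, 9 fell in each genotype, beside 38.4% of all genes in KO-labelled and 38.9% in parental cells. ARID1A, the largest subunit of the BAF form, fell by 0.75 in KO-labelled and 0.79 in parental cells. SMARCC1 rose by 0.14 in KO-labelled cells and by 0.06 in parental cells, where the call was lost with DESeq2 or its size factors, with no filter, and without parental DMSO replicate 2 or 3 or parental neratinib replicate 2. ARID1B rose in KO-labelled cells by 0.22. Of the bromodomain group, BRPF3, a scaffold of acetyltransferase complexes, fell by 0.92 in KO-labelled cells (SE 0.027) and by 0.81 in parental cells.

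Among the members, 4 of 6 acetyltransferases rose and 3 of 4 deacetylases fell in each genotype. Of all genes, 38.9% rose and 38.4% fell in KO-labelled cells, and 41.8% rose and 38.9% fell in parental cells. Other genes of these classes, counted below, were not split in this way. CREBBP, a coactivator acetyltransferase, had 216, 210.1 and 208 CPM in neratinib and 128, 135 and 136 CPM in DMSO in KO-labelled cells (0.67, SE 0.025). In parental cells it had 195, 208 and 195 CPM in neratinib and 121, 114 and 115 CPM in DMSO (0.77, SE 0.026). KAT6B rose by 0.76 in KO-labelled (SE 0.030) and by 0.74 in parental cells (SE 0.031). KAT2B rose by 1.01 in KO-labelled cells (SE 0.103) and by 0.40 in parental cells (SE 0.116); the value in parental cells was 0.26 without parental DMSO replicate 3. EP300 rose a little, by 0.15 and 0.11 in the same order, so 4 of 6 acetyltransferases rose in each genotype. HDAC2 had 79.7, 75.5 and 71.8 CPM in neratinib and 155, 153 and 161 CPM in DMSO in KO-labelled cells (-1.05, SE 0.028), and 92.3, 98.7 and 94.0 CPM in neratinib and 185, 179.7 and 183 CPM in DMSO in parental cells (-0.95, SE 0.027). HDAC1 and HDAC3 also fell in both genotypes. SIRT1, a deacetylase that uses NAD, rose instead, with 83.3, 85.5 and 83.7 CPM in neratinib and 59.1, 58.6 and 58.4 CPM in DMSO in KO-labelled cells (0.52) and 76.3, 79.9 and 77.1 CPM in neratinib and 48.1, 49.0 and 48.6 CPM in DMSO in parental cells (0.68, SE 0.028).

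The methyltransferases and demethylases were mixed. KMT2A rose by 0.56 in KO-labelled cells (SE 0.032) and by 0.22 in parental cells, whereas KMT2C, KMT2D and NSD1 fell in both. KDM2B rose by 0.59 in KO-labelled cells (SE 0.037) and by 0.29 in parental cells. KDM5A, a demethylase of an active promoter mark, had 82.3, 83.0 and 82.7 CPM in neratinib and 55.8, 56.7 and 56.3 CPM in DMSO in KO-labelled cells (0.55), and 79.0, 77.5 and 78.9 CPM in neratinib and 55.8, 53.6 and 53.1 CPM in DMSO in parental cells (0.53, SE 0.028). Its responses in the 2 genotypes were close, and KDM6A behaved likewise at 0.34 and 0.36 in the same order. KDM6B fell by 0.85 in KO-labelled and 0.60 in parental cells. The adjusted p of each neratinib response given with an SE was at most 6.09e-12 in KO-labelled cells and at most 0.00196 in parental cells, in each case that of KAT2B.

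In both genotypes 31 genes fell, beside 32.2% of all genes, and 11 rose, beside 32.9%. BRD2 and KDM4A fell in KO-labelled and rose in parental cells, beside 1.77% of all genes, and BRPF1 and TET2 did the reverse, beside 1.44%. For BRD2, BRPF1 and TET2 these changes were at most 0.25 in size. BRD2 changed sign in KO-labelled cells when genes were restricted to a mean of at least 5 CPM. TET2 changed sign in parental cells when only library totals were used for scaling. Under both of these settings BRPF1 and TET2 were not called in parental cells, nor was BRD2 in KO-labelled cells. The BRD2 call in KO-labelled cells was also lost with upper-quartile scaling and without KO-labelled neratinib replicate 2. In KO-labelled cells alone, ARID1B rose (beside 4.47% of all genes) and KDM2A, SETD1A and SMARCA2 fell (beside 4.44%). In parental cells alone, BRD1 rose (beside 7.1%) and KAT6A, KMT2B, SETD2 and SMARCC2 fell (beside 5.26%). The call of BRD1 was lost with DESeq2 or its size factors, with no filter, and without any 1 of 5 libraries. These were parental DMSO replicate 3, KO-labelled DMSO replicates 1 and 3, and parental neratinib replicates 1 and 2. KAT2A was the only gene called in neither genotype (beside 10.4% of all genes), at 0.04 in KO-labelled and 0.03 in parental cells. Neratinib and DMSO libraries did not overlap for 49 of the 56 genes in KO-labelled cells, beside 78% of all genes, and for 49 in parental cells, beside 81.3%.

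**Figure D3:**
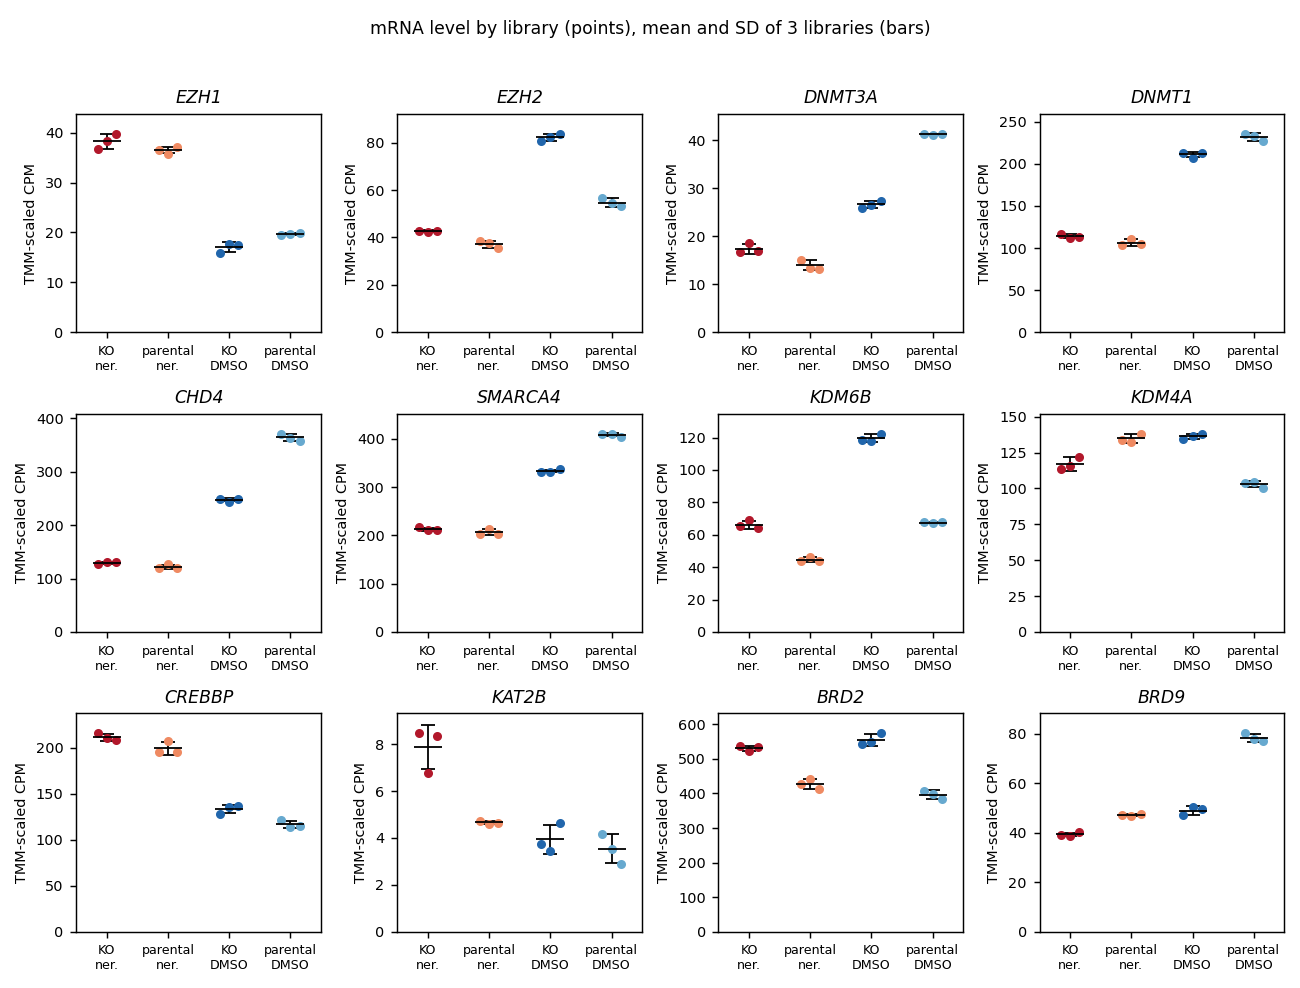
Points are the TMM-scaled CPM of each library for 12 of the genes, and bars give the mean and SD of the 3 libraries of a group, with the neratinib groups left of the DMSO groups and KO-labelled left of parental cells. EZH1 is high in both neratinib groups and EZH2 in both DMSO groups, and KDM4A is lowest in parental cells in DMSO, at 104, 105 and 100.5 CPM.

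The test of whether the genotypes respond differently to neratinib (the interaction, given as the log2 response of KO-labelled cells less that of parental cells) called 39 of 56 genes, or 69.6%, beside 46.1% of all genes. Of these, 24 were positive (42.9%, beside 21.5% of all genes) and 15 negative (26.8%, beside 24.6%). Past 1.5-fold stood 4 of the 56, DNMT3A, CHD4, KAT2B and KDM4A, beside 9.43% of all genes (3 positive, beside 4.3%, and 1 negative, beside 5.13%). Without KO-labelled neratinib replicate 1 they were 2, with KAT2B at 0.56 and KDM4A at -0.58. KAT2B also fell short of 1.5-fold without parental DMSO replicate 1 (0.47), KO-labelled DMSO replicate 2 (0.51) or KO-labelled neratinib replicate 3 (0.56). KDM4A did so without parental DMSO replicate 3 or parental neratinib replicate 3 (-0.57 each) and with DESeq2's size factors (-0.58). The median interaction was 0.02 over the 56 and -0.02 over all genes. Its median size, sign aside, was smaller over the 56, at 0.17, than over all genes, at 0.21. More members were thus called, but their interactions were not larger. Whether the shares called depend on the level of the genes was not tested. All 5 DNA methylation genes and 6 of 7 histone methyltransferases were positive, with medians of 0.25 and 0.33, so the response of KO-labelled cells lay above that of parental cells in each of them.

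DNMT3A had the largest interaction, 0.95 (SE 0.067, edgeR adjusted p = 9.12e-16). It was the only one of the 56 called by edgeR's test of a difference beyond 1.5-fold (glmTreat, adjusted p = 2.42e-05), beside 2.17% of all genes. CHD4 followed at 0.65 (SE 0.030), with an adjusted p of 0.167 beyond 1.5-fold in glmTreat. That p fell below the threshold without parental DMSO replicate 3 (0.0243), KO-labelled DMSO replicate 1 (0.037) or parental neratinib replicate 2 (0.0381). In both genes KO-labelled cells started lower in DMSO and ended slightly higher in neratinib. KAT2B, at 0.61 (SE 0.157), rose more in KO-labelled cells, and BRD9, at 0.42 (SE 0.045), fell less in them. KDM4A was the largest negative value, -0.61 (SE 0.035): it had 113, 116 and 122 CPM in KO-labelled and 134, 133 and 138 CPM in parental cells in neratinib, and with neratinib it fell in KO-labelled cells and rose in parental cells. EZH2 (-0.39, SE 0.046), BRD3 (-0.38, SE 0.039) and KDM6B (-0.25, SE 0.042) fell more in KO-labelled cells, where they had been higher in DMSO. The adjusted p of these 8 values was at most 0.00126.

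Count ratios of related genes within a library do not depend on how libraries are scaled. EZH1 to EZH2 gave 0.857, 0.903 and 0.926 in KO-labelled neratinib, 0.950, 0.952 and 1.04 in parental neratinib, 0.197, 0.214 and 0.210 in KO-labelled DMSO and 0.344, 0.360 and 0.374 in parental DMSO libraries. The ratio was higher in every neratinib library than in any DMSO library, and in DMSO it was lower in KO-labelled cells without overlap. ARID1B to ARID1A, alternative subunits of BAF, gave 0.689, 0.686 and 0.685 in KO-labelled neratinib, 0.614, 0.638 and 0.618 in parental neratinib, 0.360, 0.346 and 0.346 in KO-labelled DMSO and 0.358, 0.346 and 0.330 in parental DMSO libraries. The genotypes overlapped in DMSO, and the neratinib libraries lay above all DMSO libraries. SMARCA2 to SMARCA4 stayed low, with means of 0.125, 0.130, 0.0886 and 0.0627 for the groups in that order.

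Other pairs also shifted. KDM6B to KDM6A gave means of 0.810 in KO-labelled neratinib, 0.626 in parental neratinib, 1.85 in KO-labelled DMSO and 1.21 in parental DMSO libraries. By counts the more abundant of the 2 was thus KDM6B in DMSO and KDM6A in neratinib. Per kilobase, KDM6B stood above KDM6A in KO-labelled DMSO alone, at 17.8 against 11.9 CPM. In parental DMSO KDM6B stood at 10.1 and KDM6A at 10.2 CPM per kilobase. KAT6B to KAT6A turned in the opposite sense by counts. Its means were 1.21, 1.60, 0.695 and 0.824 for the groups in the same order. DNMT3B to DNMT3A was 0.534, 0.508 and 0.558 in KO-labelled neratinib and 0.810, 0.896 and 0.951 in parental neratinib libraries, while the DMSO groups overlapped, at 0.686, 0.648 and 0.622 in KO-labelled and 0.693, 0.647 and 0.645 in parental cells. CREBBP to EP300 was higher in both neratinib groups, with means of 1.41 and 1.41, than in the DMSO groups, with 0.990 and 0.889, KO-labelled first. These ratios were not tested; an exact 2-sided permutation test of 3 against 3 libraries cannot go below p = 0.1. They compare counts, which also depend on transcript length.

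**Figure D4:**
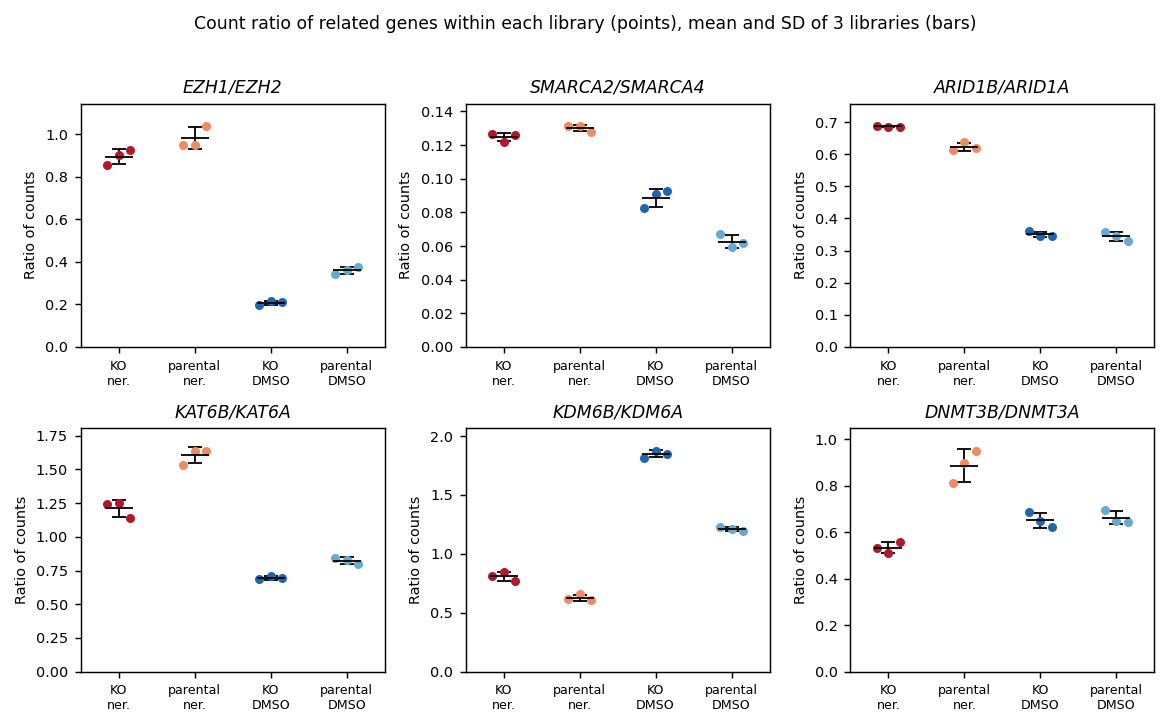
Points are the count ratio of 6 pairs of related genes in each library, and bars give the mean and SD of 3 libraries. EZH1/EZH2, SMARCA2/SMARCA4, ARID1B/ARID1A and KAT6B/KAT6A are higher in both neratinib groups than in the DMSO groups, KDM6B/KDM6A is lower, and DNMT3B/DNMT3A moves apart between the genotypes.

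Some genotype differences lay in stretches of the genome where neighbouring genes differed too. For each member the median log2 fold change of the 50 nearest tested genes on its chromosome was taken. Around EED on chromosome 11 (77.5 to 95.1 Mb, GRCh38) this median was -0.33 in DMSO and -0.43 in neratinib, with 41 and 42 of 50 neighbours lower in KO-labelled cells, beside -0.39 and -0.56 for EED itself. Around KAT6A on chromosome 8 it was 0.26 and 0.20, with 40 and 37 of 50 neighbours higher, beside 0.37 and 0.55 for the gene. Around DNMT3B on chromosome 20 (31.5 to 35.5 Mb) it was -0.24 and -0.23, with 38 and 37 of 50 lower, beside -0.65 and -0.41. Around KMT2A on chromosome 11 it was -0.29 and -0.39, while KMT2A was at -0.29 and 0.05. Around HDAC3 on chromosome 5 it was -0.39 and -0.40, while HDAC3, not called in either condition, was at 0.03 and -0.03. In each case the first value is for DMSO. Copy number was not measured, and its part in these differences was not tested. Near KDM6B, EZH2, DNMT3A and BRD9 the neighbours' median lay between -0.11 and 0.10 in both conditions.

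**Figure D5:**
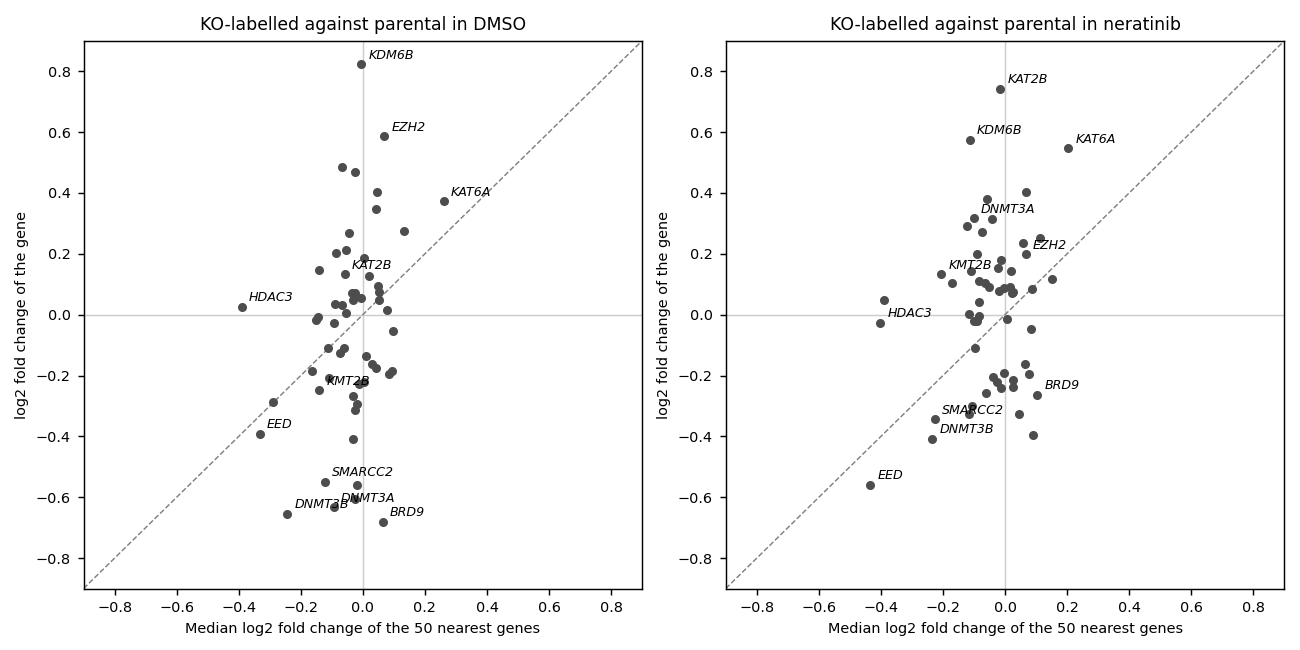
Each point is 1 of the 56 genes, with the median log2 fold change of its 50 nearest tested genes on the x axis and its own log2 fold change, KO-labelled against parental, on the y axis; the dashed line marks equal values. EED lies near the line in both panels, and KDM6B, at 0.82 in DMSO, lies far from its neighbours' median of -0.01.

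Other genes of the same complexes and families were counted from a list of 194, of which 190 were tested. In DMSO 63 were higher and 86 lower in KO-labelled cells (beside 36% and 35.6% of all genes), with a median log2 fold change of -0.06. In neratinib 65 were higher and 97 lower (beside 34.7% and 36.9% of all genes), with a median of -0.08. With neratinib 74 rose and 96 fell in KO-labelled cells (beside 38.9% and 38.4% of all genes), with a median of -0.11. In parental cells 75 rose and 94 fell (beside 41.8% and 38.9% of all genes), with a median of -0.10. The interaction was positive for 48 and negative for 57 of the 190, beside 21.5% and 24.6% of all genes. Among the 56 members it was positive for 24 (42.9%) and negative for 15 (26.8%). Among the 20 proliferation genes it was positive for 10 and negative for 4, so an excess of positive values was not particular to the members. By role, the other SWI/SNF genes fell with neratinib in 9 of 14 cases in KO-labelled and 10 of 14 in parental cells. Of 18 other deacetylase-complex genes, 9 rose and 6 fell in KO-labelled cells, and 11 rose and 5 fell in parental cells. Of 17 other acetyltransferase genes, 9 rose and 8 fell in KO-labelled cells, and 7 rose and 7 fell in parental cells. The other DNA methylation genes had a positive interaction in 5 of 10 cases and a negative one in none. The other histone methyltransferases had a positive interaction in 7 of 32 cases and a negative one in 13, beside 6 and 0 of the 7 members of that class, and 10 were higher and 20 lower in KO-labelled cells in neratinib.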

How the data were processed

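Polyadenylated RNA of BT474 cells was made into TruSeq RNA v2 libraries and sequenced as single 50-base reads, per the labels' protocols. For the 12 libraries the authors deposited raw read counts, whole numbers with 1 row per gene. FastQC 0.11.7, STAR 2.7.9, edgeR 3.40.2 and the genome build GRCh38/hg38 are named, per the submitters' processing notes. The program, annotation and strand setting of the counting are not given in the sources used here. Of 28395 rows, 581 have no gene name; they hold 0.0877 to 0.124% of a library's counts and were left out.

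The counts were fitted with edgeR 4.0.16 (R 4.3.3; limma 3.58.1): TMM scaling, filterByExpr, which kept 16208 genes, and a quasi-likelihood test with 1 mean per group over all 12 libraries, with 8 residual degrees of freedom. The common biological coefficient of variation was 1.86%. P-values were adjusted by Benjamini and Hochberg over all genes tested, and a gene was called at an adjusted p below 0.05. The interaction was also tested against a 1.5-fold threshold with glmTreat. The fit was tested on simulated counts first. The members, gene lists and comparisons were chosen with earlier results of these data known. Named with per-library values are the 6 members that rose most and the 6 that fell most in each pairwise comparison, taken from those called, at 1 CPM or more in either group and with libraries that do not overlap, and the 4 largest of each sign in the interaction; members named for their role or class in addition carry a fold change only or were chosen after their values were seen. Counts per kilobase used the longest APPRIS principal transcript of GENCODE 29, also the source of positions and exon overlaps. Promoters came from RefSeq (GRCh38.p14). Figures were drawn with matplotlib 3.10.9 in Python 3.11.15. Alternatives were other scalings, other filters on low counts, DESeq2 1.42.0, the replicate number as a block, only the groups compared, a fixed coefficient of variation of 0.1, and leaving out each library.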

Additional observations from a re-analysis of the deposited data

Results flagged for a closer look

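The neratinib response differed between KO-labelled and parental cells by the test of the interaction itself in each of the 8 genes named for it. On the log2 scale, the response of KO-labelled cells exceeded that of parental cells by 0.95 in DNMT3A, 0.65 in CHD4, 0.61 in KAT2B and 0.42 in BRD9. It lay below that of parental cells in KDM4A, at -0.61, in EZH2, at -0.39, in BRD3, at -0.38, and in KDM6B, at -0.25. Only DNMT3A was called beyond 1.5-fold by edgeR's glmTreat (adjusted p = 2.42e-05).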

How the results depend on the processing

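Replicates vary little in these libraries, and a larger spread shortened every list of calls. When each gene was given a coefficient of variation of 0.1, the members called fell to 7 higher and 11 lower for KO-labelled against parental cells in DMSO, 8 higher and 7 lower in neratinib, 9 higher and 21 lower for neratinib in KO-labelled cells, 9 higher and 25 lower for neratinib in parental cells, and 3 positive and 1 negative in the interaction (DNMT3A, CHD4, KAT2B and KDM4A). The interactions of BRD9 (0.42), EZH2 (-0.39), BRD3 (-0.39) and KDM6B (-0.26) were then no longer called (edgeR adjusted p of 0.11 to 0.423). Past 1.5-fold for KO-labelled against parental cells in neratinib stood 2 members with a mean of at least 5 CPM required. Beyond 1.5-fold in glmTreat stood 2 interactions with DESeq2's size factors in edgeR (CHD4 adjusted p = 0.042). The cause of these 2 changes was not tested.

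Leaving out each library in turn gave 14 to 19 higher, 25 to 26 lower and 4 to 6 past 1.5-fold for the genotype comparison in DMSO, and 26 to 30, 18 to 19 and 1 to 2 in neratinib. It gave 13 to 14 higher, 35 to 37 lower and 17 to 18 past 1.5-fold for neratinib in KO-labelled cells, and 12 to 16, 35 to 37 and 16 to 19 in parental cells. The interaction ranged over 22 to 25 positive, 11 to 16 negative, 2 to 4 past 1.5-fold and 1 to 2 beyond it in glmTreat. None of the fold changes chosen by the naming rule reversed under any alternative run. Of the other changes called in the main fit, those of TET2 and BRD7 in parental cells changed sign with library totals alone. That of BRD2 in KO-labelled cells did so with a mean of at least 5 CPM required. Changes not called in the main fit were not checked for sign.

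Libraries with the same replicate number did not deviate together (correlations of -0.021 to 0.0277). With the replicate number as a block, 35 members instead of 36 fell with neratinib in KO-labelled cells and 14 instead of 15 interactions were negative, and the other counts were equal. Other scalings moved the median of all genes by at most 0.0793 on the log2 scale. KAT2B, at a few CPM, is the member whose value depth limits most.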
